A study of Mus musculus with 16 samples.

Results

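Hamp-Syt1 reticular cells were a small class of fibroblastic lymph node cells that carried transcripts of Hamp, Syt1 or Megf6 together with very high Cxcl13. They were chosen cell by cell from counts of unique molecular identifiers (UMIs, each 1 captured transcript). Kept cells had between 200 and 6000 detected genes, with mitochondrial transcripts at 30% of UMIs or less. A fibroblastic cell also had at least 2000 UMIs, at most 1 UMI of Ptprc and of Pecam1, and at least 2 UMIs of Col1a2, Pdgfra and Pdgfrb together. A member had at least 3 UMIs summed over Hamp, Syt1, Megf6, Tnfsf11, Hamp2 and Ch25h, more of the first 3 genes than of the last 3, and a sum above the gene sums that defined the T zone, medullary, perivascular and follicular classes. The rule took 716 of 10901 fibroblastic cells (6.57%), out of 50386 kept cells and 68741 barcodes. The counts of these genes chose the cells, so their levels and the shares of cells are given as a description with no test.

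The study compared lymph nodes of C57Bl/6 mice, sex-matched and eight-week-old, on day 12 after 500000 MC38 cells, a mouse colon carcinoma line, had been placed under the skin of the lower right flank. The 16 libraries were live draining (3) and live non-draining (3) nodes of mice given live cells, fixed draining (3) and fixed non-draining (3) nodes of mice given paraformaldehyde-fixed cells, and nodes of naive mice (4), which the labels call naive while listing MC38 as their cell line too. Draining and contralateral non-draining inguinal nodes came from the same mice, and all suspensions were enriched for PDPN-positive cells, so shares of cells refer to the enriched suspension. The labels do not say that each library came from its own animal, so the p-values measure the spread between these libraries, which may be in part technical.

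Libraries held 7486725 to 48945961 UMIs, and the members of a library held 150837 to 1487718 UMIs. The fewest members came from the fixed non-draining nodes, with 19, 12 and 12 cells in replicates A, B and C. The median member had 13360 UMIs, against 8749 in the other fibroblastic cells. Of 50053 distinct barcodes among kept cells, 330 occurred in more than 1 library, 13 members had such a barcode, and no barcode was shared by a pair of members. Doublets stayed in. The automatic threshold of the caller marked 44 cells and had not worked, and a rank rule in its place marked 1464 cells, of which 3 were members. Of the 716 members, 68 carried 1 UMI of Ptprc and 55 carried 1 UMI of Pecam1.

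Marginal reticular cells lie under the capsule at the outer edge of the B cell follicles. They make CXCL13, which draws B cells, and RANKL, the product of Tnfsf11, and they are regarded as relatives of the follicular dendritic cells, which hold immune complexes through complement receptors such as CR2 and through Fc receptors. Hamp encodes hepcidin, a peptide hormone best known from the liver that lowers iron export through ferroportin, and its transcription in liver cells answers to BMP signals and to STAT3. Syt1 encodes synaptotagmin 1, the calcium sensor of vesicle release in neurons, and Megf6 encodes a large protein with repeated EGF-like domains.

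Hamp and its neighbour Hamp2 stand on opposite sides of the membership rule, so the 250 bases upstream of each gene are shown (mm10, minus strand, 5′ to 3′, RefSeq starts). Hamp lies on chromosome 7 with the printed stretch at chr7:30944030-30944279, and that of Hamp2 is at chr7:30924182-30924431. Capitals mark a BMP-responsive letter run, GGCGCC, and a STAT letter run, TTCTTGGAA, each searched on both strands.
Hamp: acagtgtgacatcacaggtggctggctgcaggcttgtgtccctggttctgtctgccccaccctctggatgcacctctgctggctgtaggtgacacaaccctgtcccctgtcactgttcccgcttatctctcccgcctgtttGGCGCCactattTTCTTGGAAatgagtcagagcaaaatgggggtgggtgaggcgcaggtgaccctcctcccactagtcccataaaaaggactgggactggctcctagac
Hamp2: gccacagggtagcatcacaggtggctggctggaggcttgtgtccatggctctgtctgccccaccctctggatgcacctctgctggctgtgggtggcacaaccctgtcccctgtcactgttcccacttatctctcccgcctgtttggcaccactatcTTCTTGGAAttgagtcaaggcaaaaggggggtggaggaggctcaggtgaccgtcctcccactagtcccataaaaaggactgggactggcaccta

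The stretches were 89.7% identical over 253 aligned columns, with 227 identical columns. TTCTTGGAA occurred in both, at bases 97 to 89 before the start of Hamp and 94 to 86 before that of Hamp2, while GGCGCC occurred only upstream of Hamp, at bases 109 to 104. Among 27025 promoters of the same length, 9.54% held GGCGCC and 0.370% held TTCTTGGAA, on either strand. A letter match describes the sequence and was not tested as a binding site. The sequences of the genes themselves were not compared. If they are as alike, reads of Hamp and Hamp2 may have been split or lost in counting, so their levels are uncertain.

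The most frequent make-up was Syt1 and Megf6 without Hamp, in 252 of 716 members (35.2%), followed by all 3 genes together in 213 (29.7%). Hamp alone was found in 87 members (12.2%), Hamp and Syt1 in 81 (11.3%), Syt1 alone in 50, Hamp and Megf6 in 21 and Megf6 alone in 12. A Hamp UMI was thus seen in 402 members (56.1%), a Syt1 UMI in 83.2% and a Megf6 UMI in 69.6%. After each cell had been thinned to 2000 UMIs, Hamp was found in 41.9% of members, against 9.08% of Tnfsf11-Ch25h cells, 0.833% of B cells and 0.382% of lymphatic endothelial cells (LECs). The B cells had a median of 5827.5 UMIs and the LECs of 9557, and both serve as cells that should lack the gene. Unthinned, the shares were 56.1%, 27.4%, 2.34% and 1.44% in the same order. Syt1 was found in 47.9% of thinned members and in 0.260% of thinned B cells.

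Membership rested on few UMIs at its edge. Just inside it lay 50 members with a sum of exactly 3 UMIs over the 6 genes and 50 members whose Hamp, Syt1 and Megf6 sum was 1 above the sum of the other 3 genes. Just outside lay 38 fibroblastic cells with a sum of 2, 39 cells in which both sums were equal and 86 cells whose follicular sum (Fcer2a, Tesc and Epcam) was the higher one. The median member carried 10 UMIs of Hamp, Syt1 and Megf6 and 1 UMI of Tnfsf11, Hamp2 and Ch25h, and 426 members had at least 1 UMI of the last 3 genes.

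The members carried the genes of marginal reticular cells, but also those of follicular dendritic cells, so the label fitted in part. All 7 marginal reticular markers were detected, but so were all 6 follicular dendritic ones, and detection alone does not separate the types. The follicular dendritic markers summed to 17065 to 19786 CPM in live draining members, of which Cr2 made up 725 to 1223 CPM. UMIs of Cxcl13 and of Enpp2, the lysophospholipase that makes lysophosphatidic acid, were found in 100% of members, of Vcam1 in 98.7%, of Bst1 in 95.3%, of Icam1 in 83.7%, of the adhesion molecule Madcam1 in 73.6% and of Tnfsf11 in 49.4%. Thinned to 2000 UMIs, Cxcl13 was found in 99.9% of members, against 25.8% of B cells and 15.3% of LECs, and Madcam1 in 42.5% of members, against 23.1% of LECs. The study lists Madcam1 as a marker of floor LECs, so the LEC share of this gene is not a background level. Cr2 was found in 61.0% of thinned members, against 3.51% of Tnfsf11-Ch25h cells, 0.586% of LECs and 76.9% of the 134 cells of the Fcer2a-Tesc-Epcam class. Unthinned, the Cr2 shares were 77.2%, 11.02%, 3.25% and 77.6% in the same order. B cells, which express Cr2 themselves, had it in 31.9% of thinned cells. The cells are therefore called Hamp-Syt1 reticular cells here, and no other cell type name is given.

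**Figure D1:**
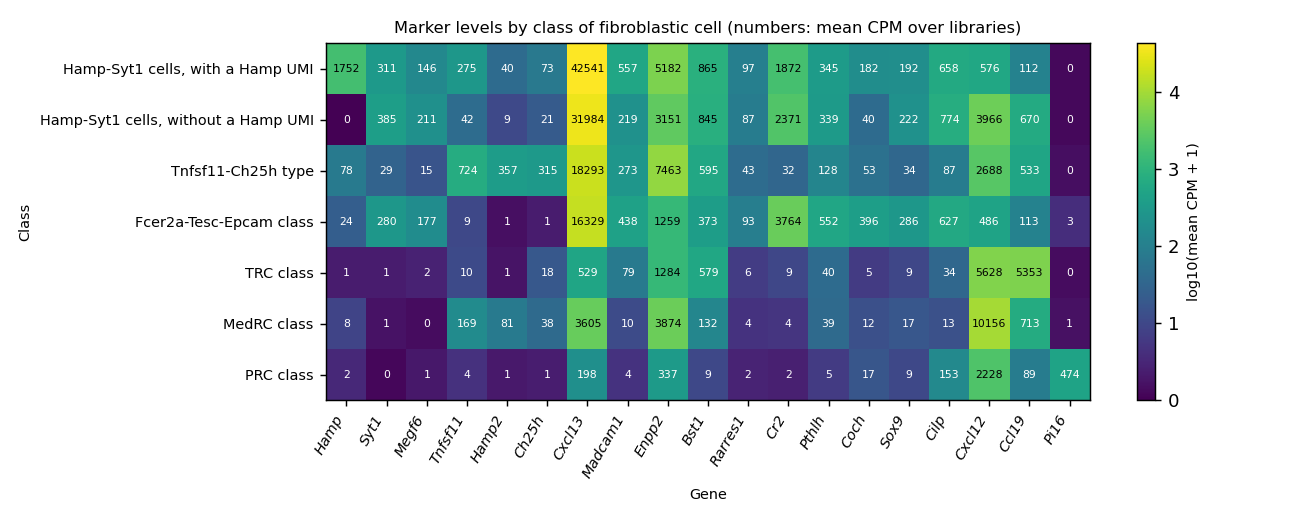
Mean level of marker genes (columns, CPM, UMIs per 1000000 UMIs of a class, averaged over libraries) in classes of fibroblastic cells (rows; TRC, MedRC and PRC stand for T zone, medullary and perivascular reticular cells), with colour on a log10 scale of CPM + 1. Cxcl13 was at 42541 and 31984 CPM in Hamp-Syt1 cells with and without a Hamp UMI, against 18293 CPM in the Tnfsf11-Ch25h type, and Cr2 separated the same classes at 1872 and 2371 CPM, against 32.4 CPM.

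Against the 1796 cells of the Tnfsf11-Ch25h type, which met the same gate with the larger sum on Tnfsf11, Hamp2 and Ch25h, the widest gap outside the rule was that of Cr2 (ENSMUSG00000026616.15, chr1:195136811-195176716). It averaged 2043 ± 684 CPM in members and 32.4 ± 21.7 CPM in the Tnfsf11-Ch25h type (SD, n = 16 libraries), and was higher in members in 16 of 16 libraries. Other genes with wide gaps were A230065H16Rik, the glutamate transporter gene Slc1a2 (308 ± 124 against 7.96 ± 4.58 CPM), the nephrin gene Nphs1, the retinaldehyde dehydrogenase gene Aldh1a3 (105 ± 45.6 against 2.91 ± 4.69 CPM), Art2a-ps, the integrin gene Itgb4, Tmem119 and Slc22a23. Lower in members in 16 of 16 libraries were Inmt, the leptin receptor gene Lepr (17.4 ± 13.4 against 321 ± 116 CPM), Notch3, Rgs16, Cldn1, Pltp, Col6a3, Ntng1, the smooth muscle gene Tagln (46.3 ± 30.5 against 452 ± 149 CPM) and the BMP antagonist gene Chrdl1. Cxcl13 averaged 38147 ± 5424 CPM in members, against 18293 ± 3778 CPM in the Tnfsf11-Ch25h type and 529 ± 354 CPM in the T zone class. A230065H16Rik, Aldh1a3 and Art2a-ps averaged higher still in the Fcer2a-Tesc-Epcam class, so their gaps to the Tnfsf11-Ch25h type do not mark members alone. These contrasts follow from the rule and the cells it sorted, and carry no test.

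Members differed among themselves along Hamp. Of all Hamp UMIs, 86.0% came from the 158 members with at least 20 of them. Tnfsf11 was found in 28.7% of the 314 members with no Hamp UMI, in 41.1% of the 124 with 1 to 4, in 67.5% of the 120 with 5 to 19 and in 83.5% of the 158 with 20 or more. Madcam1 was found in 59.6%, 75.8%, 81.7% and 93.7% of the same bins, whereas Cr2 was found in 89.2%, 81.5%, 68.3% and 57.0%. Cxcl12 ran at 39.5, 10.2, 3.59 and 2.63 UMIs per 10000. The median cell depth was 11526.5, 9483, 12064.5 and 18980.5 UMIs in these bins, so shares of cells also move with depth, while levels per 10000 UMIs are scaled to it. Tnfsf11 is a gene of the rule, and its rise over the bins is fixed in part by the requirement that a cell with more Tnfsf11 needs more Hamp, Syt1 or Megf6.

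Per library, Coch, a gene of cochlear matrix protein also used as a follicular dendritic marker, averaged 182 ± 100 CPM in members with a Hamp UMI and 39.8 ± 46.8 CPM in members without one (SD, n = 16), and was higher with Hamp in 16 of 16 libraries. The same held in 16 of 16 libraries for Madcam1 (557 ± 186 against 219 ± 118 CPM), Enpp2 (5182 ± 1208 against 3151 ± 345 CPM), the BMP target gene Id1 (370 ± 112 against 106 ± 62.2 CPM), Mmp9, Ldha, Fn1 and Stc1. Stc1 belongs to the medullary sum of the rule. That sum had to stay below the one holding Hamp, so cells with more Hamp could carry more Stc1. Cxcl12 (576 ± 359 against 3966 ± 1402 CPM), Ccl19 (112 ± 69.6 against 670 ± 456 CPM), Slc1a2, Sncg and Pdlim3 were lower with Hamp in 16 of 16 libraries. Cells with and without Hamp came from the same droplet libraries, and the split was made on a gene of the rule, so these are descriptions.

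Members made up 5.43%, 8.29% and 6.52% of fibroblastic cells in live draining replicates A, B and C, against 7.76%, 9.03% and 7.87% in the live non-draining ones. They made up 6.88%, 8.75% and 7.27% in the fixed draining libraries, against 7.17%, 5.61% and 7.59% in the fixed non-draining ones, and 5.01%, 4.57%, 5.32% and 5.04% in the naive ones. The draining and non-draining libraries of each inoculum overlapped. The exact 95% binomial intervals of single libraries were 4.25% to 6.83% in live draining replicate A and 5.67% to 10.3% in live non-draining replicate A, which overlapped. That of live draining replicate A lay just below that of fixed draining replicate B, at 6.90% to 10.9%. Those of live draining replicates B (6.82% to 9.95%) and C (5.01% to 8.32%) overlapped it. These intervals cover counting error only. Of Hamp-Syt1 and Tnfsf11-Ch25h cells together, members made up 19.9%, 28.0% and 23.1% in the live draining libraries, against 36.4%, 37.1% and 37.5% in the live non-draining ones, groups that did not overlap. That share moves with the genes of the rule and is not a test of cell numbers.

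**Figure D2:**
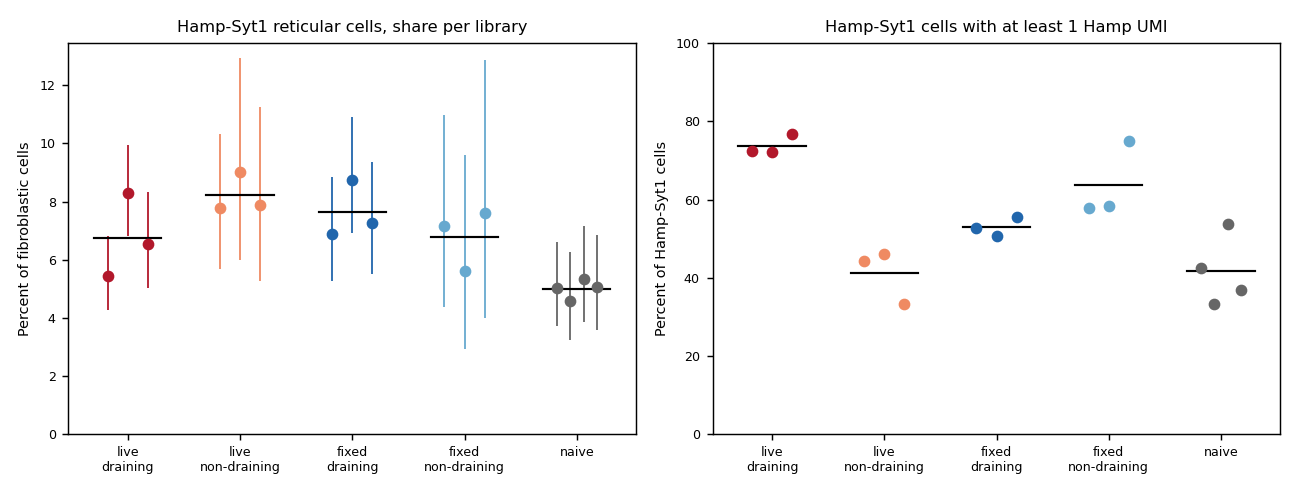
Left, percent of fibroblastic cells that were Hamp-Syt1 cells in each library, with exact 95% binomial intervals; right, percent of Hamp-Syt1 cells with at least 1 Hamp UMI. Points are libraries and bars are group means. The shares on the left overlapped between live draining (5.43% to 8.29%) and live non-draining nodes (7.76% to 9.03%), while on the right the live draining libraries, at 72.1% to 76.7%, lay above the live non-draining ones, at 33.3% to 46.2%.

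The make-up of the members by Hamp, a gene of the rule, is given as a description with no test. A Hamp UMI was found in 72.5%, 72.1% and 76.7% of members in the live draining libraries, against 44.2%, 46.2% and 33.3% in the live non-draining ones. The fixed draining libraries had 52.6%, 50.7% and 55.6%, against 57.9%, 58.3% and 75.0% in the fixed non-draining ones, and the naive libraries had 42.6%, 33.3%, 53.7% and 36.8%. Fixed non-draining replicate C thus lay within the range of the live draining libraries. Every change between live draining and live non-draining members described here was therefore measured in members of different Hamp make-up. The part of this make-up in the results was not tested, and for some genes values within members with and without a Hamp UMI are given, from fits chosen after the data had been seen.

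Levels of the rule genes themselves were as follows. Hamp (ENSMUSG00000050440.8, chr7:30942368-30944032) was at 1383, 1740 and 1310 CPM of member UMIs in the live draining libraries, against 1275, 1194 and 257 CPM in the live non-draining ones. It was at 930, 889 and 1404 CPM in the fixed draining libraries, against 1147, 870 and 1728 CPM in the fixed non-draining ones, and at 573, 445, 1119 and 706 CPM in the naive ones. Fixed draining replicate C and fixed non-draining replicate C lay within the range of the live draining libraries, and the remaining libraries lay below it. CPM here and in the comparisons are scaled by the totals of the tested genes, corrected by TMM factors. Syt1 (ENSMUSG00000035864.14, chr10:108497650-109010982) was at 235, 224 and 191 CPM in the live draining libraries, against 348, 423 and 418 CPM in the live non-draining ones. Megf6 (chr4:154170730-154275713) was at 80.3, 82.7 and 124 CPM in the live draining libraries, against 189, 195 and 249 CPM in the live non-draining ones. In the fixed and naive libraries Syt1 was at 294 to 406 CPM and Megf6 at 128 to 260 CPM, so the live draining libraries had the lowest levels of Syt1 and of Megf6 of all 16. Tnfsf11 was at 245, 292 and 253 CPM in the live draining libraries, against 178, 158 and 77.2 CPM in the live non-draining ones.

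Cxcl13 and Rarres1, markers of the class outside the rule, gave different pictures. Cxcl13 (chr5:95956951-95961068) was at 39693, 38992 and 33557 CPM in live draining members, against 39817, 42978 and 29757 CPM in live non-draining members. The log2 fold change was -0.00 ± 0.17 (SE), with an adjusted p of 0.996 by edgeR's quasi-likelihood test with Benjamini-Hochberg adjustment over all 8886 genes tested, which is the test behind every adjusted p of the comparisons below unless another is named. A fold change is the first named group over the second. Rarres1, a retinoic acid receptor responder gene, was at 131, 153 and 124 CPM in live draining members, against 60.6, 80.4 and 94.4 CPM in live non-draining members, a log2 fold change of 0.84 ± 0.20 (edgeR adjusted p = 0.00496). The libraries of Rarres1 did not overlap, as was true of 29.9% of all genes tested, but within members with a Hamp UMI the log2 fold change was 0.65 ± 0.29 (edgeR adjusted p = 0.17) and within those without one 0.44 ± 0.38 (0.72). Madcam1 (0.37 ± 0.18, edgeR adjusted p = 0.194) and Enpp2 (-0.20 ± 0.16, 0.498) did not pass the test.

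Live draining nodes were compared with live non-draining nodes to see what Hamp-Syt1 cells expressed downstream of a growing tumor. Mmp3, Mmp9, Thbs1, Hspg2, Fn1, Lgals1, Serpina3g and Lcn2 rose, while Sncg, Csf1r, Pdlim3, Fcgr2b, Cxcl12 and Cr2 fell. Among the lists, 19 of 32 genes for collagens and matrix glycoproteins rose and 6 of 12 circadian output genes fell. Of 8886 genes tested, 954 passed an adjusted p of 0.05 (10.7%), with 467 higher (5.26%) and 487 lower (5.48%), and 2176 had an unadjusted p under 0.05 (24.5%). The count was 526 when live non-draining replicate C was left out and 559 for live draining replicate B. The median log2 fold change over all genes tested was -0.01. Within members with a Hamp UMI 488 of 6125 genes passed, and within members without one 37 of 6411 passed, of which 425 and 29 were also among the 954. Of the 76 named genes that passed, 73 could be tested with Hamp and 53 passed there, and 70 could be tested without it and 16 passed, with no change of direction. The smaller sets hold fewer cells and fewer UMIs, and fixed non-draining replicate C had too few members without Hamp to enter the last fit.

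Mmp3, which encodes stromelysin 1, an enzyme that cuts many matrix proteins, showed the largest of the named rises. It was at 376, 413 and 522 CPM in live draining members, against 7.13, 49.3 and 8.58 CPM in live non-draining members (log2 fold change 4.41 ± 0.50, edgeR adjusted p = 1.04e-06). All live draining libraries lay far above every other library, the next being fixed draining replicate C at 124 CPM. The naming rule required no overlap with live non-draining libraries, and 15.2% of all genes tested were higher without such overlap. Mmp9, which encodes gelatinase B, was at 148, 169 and 115 CPM in live draining members, against 16.05, 38.9 and 8.58 CPM in live non-draining members (2.79 ± 0.31, edgeR adjusted p = 6.82e-07). Mmp2, the gelatinase A gene, was at 22.1, 18.5 and 30.7 CPM in live draining members, against 3.57, 0 and 0 CPM in live non-draining members, and also passed (edgeR adjusted p = 0.000782). Only 2 Mmp2 UMIs were counted over the live non-draining libraries, so no fold is given. Timp3, which encodes an inhibitor of such proteases, fell by 0.90 on the log2 scale (SE 0.20, edgeR adjusted p = 0.00388). Of 15 tested proteases and inhibitors 3 rose and 2 fell, the other being Timp2, and the list's median was 0.11. Over all genes tested 5.26% rose and 5.48% fell. Within members with a Hamp UMI, Mmp3 changed by 3.69 ± 0.51 (edgeR adjusted p = 5.5e-05) and Mmp9 by 2.07 ± 0.33 (0.00024), and within members without one neither gene had enough counts to be tested.

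Thbs1, the thrombospondin 1 gene, was at 107, 89.8 and 84.5 CPM in live draining members, against 7.13, 10.4 and 2.86 CPM in live non-draining members (3.72 ± 0.47, edgeR adjusted p = 5.06e-06). Hspg2, which encodes perlecan of basement membranes, was at 95.3, 114 and 81.9 CPM, against 21.4, 15.6 and 5.72 CPM (2.67 ± 0.30, 1.04e-06). Fn1, the fibronectin gene (ENSMUSG00000026193.15, chr1:71585520-71653200), was at 1658, 1984 and 1763 CPM in live draining members, against 349, 602 and 378 CPM in live non-draining members (2.03 ± 0.20, edgeR adjusted p = 1.13e-07). For all 3 genes the live draining libraries stood above every one of the other 13. The rule that named them required no overlap with live non-draining libraries, and 15.2% of all genes tested were higher without such overlap. Ecm1, which encodes extracellular matrix protein 1, was at 76.3, 99.1 and 94.7 CPM, against 16.05, 20.8 and 17.2 CPM (2.33 ± 0.31, edgeR adjusted p = 9.67e-06), and the collagen IV gene Col4a1 changed by 1.56 ± 0.21 (9.67e-06). Within members with a Hamp UMI the log2 fold change of Fn1 was 1.46 ± 0.21 (edgeR adjusted p = 6.5e-05) and within those without one 2.10 ± 0.25 (6.7e-06), so its rise was present in both. Thbs1 had 3.36 ± 0.53 (0.0002) with Hamp and 2.95 ± 0.89 (0.15) without, and Hspg2 had 2.97 ± 0.42 (5.5e-05) with Hamp and 1.63 ± 0.55 (0.22) without. Ecm1 had 2.18 ± 0.37 (0.00041) with Hamp and 1.53 ± 0.83 (0.51) without.

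Of 32 tested genes for collagens and matrix glycoproteins, 19 rose and 2 fell between live draining and live non-draining members, with a median log2 fold change of 0.66. Among all genes tested, 5.26% rose and 5.48% fell. Listed genes given without library values lie outside the naming rule and were added after their values were seen, to complete counts. Those that rose included the collagens Col1a1 (1.07), Col6a1 (1.25), Col6a3 (2.00), Col4a2 (1.23) and Col18a1 (2.22), the laminin chain genes Lama4 (1.53) and Lamc1 (0.59), the nidogen gene Nid1 (2.54), Fbn2 (2.22), Tnc (1.06) and Dcn (0.96). Postn, the periostin gene, ran the other way, at 51.2, 87.7 and 34.6 CPM in live draining members, against 325, 106 and 378 CPM in live non-draining members (-2.15 ± 0.32, edgeR adjusted p = 4.13e-05), and Tnxb, the tenascin X gene, fell by 0.93. Postn had -3.69 ± 0.57 (edgeR adjusted p = 0.00013) in members with a Hamp UMI and -0.36 ± 0.35 (0.76) in those without one. Within members with a Hamp UMI 11 of 26 listed genes rose and 1 fell, and within members without one 1 rose and none fell, at medians of 0.84 and 0.22.

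Lgals1, which encodes the secreted lectin galectin 1, was at 560, 634 and 570 CPM in live draining members, against 191, 85.6 and 100 CPM in live non-draining members (2.17 ± 0.26, edgeR adjusted p = 1.87e-06). The calcium-binding protein gene S100a6 was at 592, 673 and 612 CPM, against 374, 202 and 220 CPM (1.21 ± 0.17, 2e-05), and the tropomyosin gene Tpm2 changed by 1.16 ± 0.20 (0.000194). Both Lgals1 and S100a6 were higher in each live draining library than in any of the other 13. Lgals1 was named by a rule requiring no overlap of the live groups, and 15.2% of all genes tested were higher without overlap. Pdlim3, which encodes a protein of the actin-anchoring Z disc, was instead at 102, 73.4 and 76.8 CPM in live draining members, against 551, 472 and 549 CPM in live non-draining members (-2.64 ± 0.20, edgeR adjusted p = 5.08e-10), the smallest adjusted p of the named genes. Of 31 tested genes for actin cytoskeleton, S100 and annexin proteins 11 rose and 1, Pdlim3, fell, with a median of 0.42. The shares over all genes tested were 5.26% higher and 5.48% lower. Lgals1 changed by 2.30 ± 0.32 (5.5e-05) with Hamp and by 1.53 ± 0.31 (0.011) without, and Pdlim3 by -2.68 ± 0.29 (1.9e-06) and -1.79 ± 0.23 (9.4e-06).

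**Figure D3:**
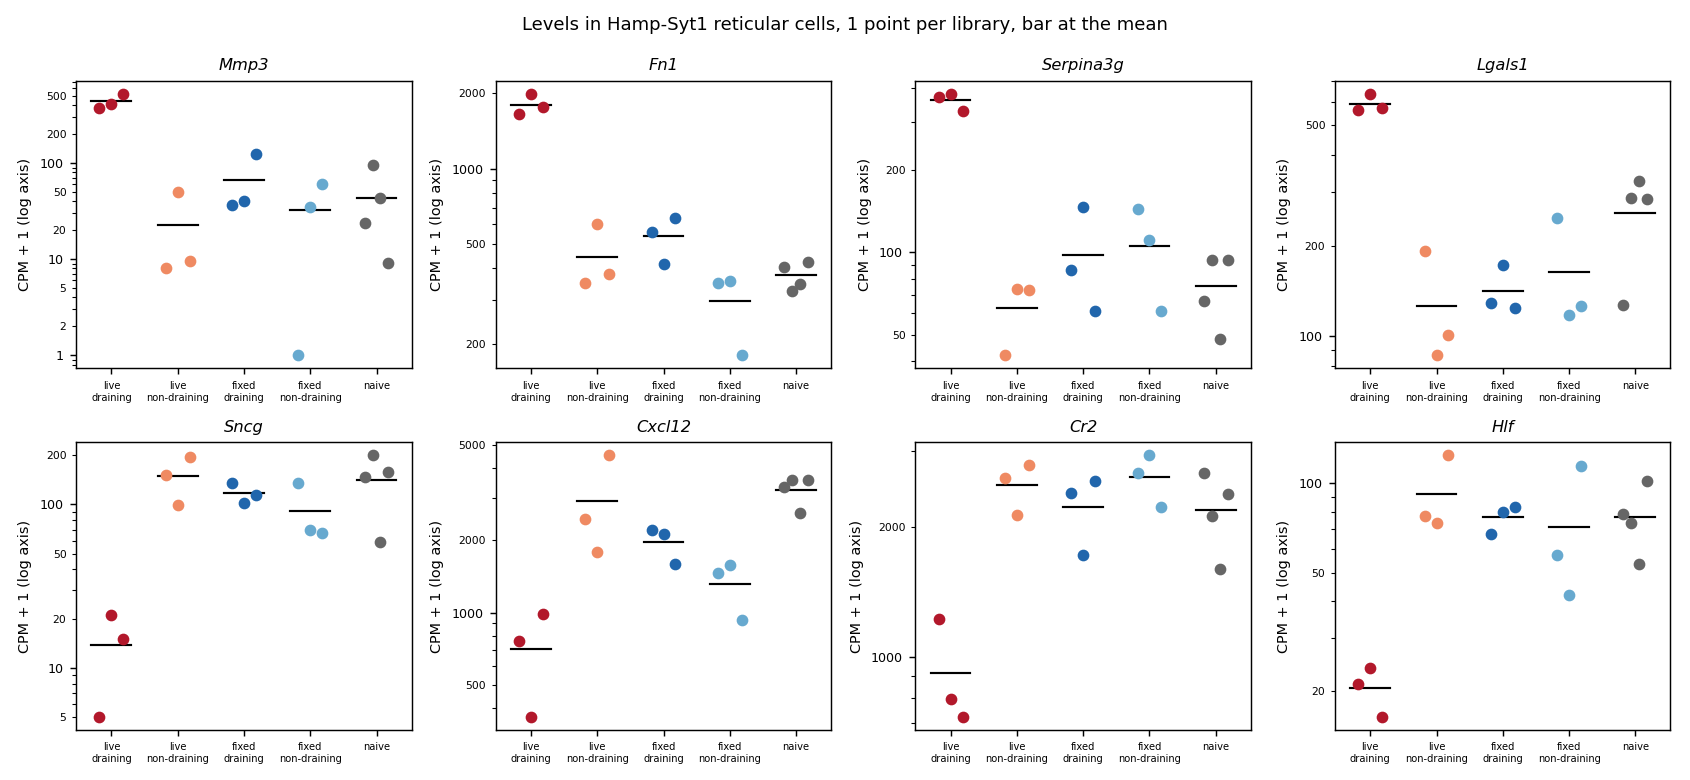
Levels of 8 genes in Hamp-Syt1 cells (CPM + 1 on a log axis, own scale per panel), 1 point per library and a bar at the group mean, for live draining, live non-draining, fixed draining, fixed non-draining and naive nodes. Mmp3, Fn1, Serpina3g and Lgals1 were highest in all 3 live draining libraries, and Sncg, Cr2 and Hlf were lowest there. Mmp3, Fn1, Serpina3g, Lgals1, Sncg and Cxcl12 were named by a rule that required no overlap of the live groups. Cxcl12 was at 367 to 988 CPM in live draining members, against 933 to 4514 CPM in the other 13 libraries.

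Acute phase and iron genes were read together because hepcidin belongs to both settings. Serpina3g, which encodes a serine protease inhibitor of a large multigene cluster whose copies may share reads, was at 369, 378 and 329 CPM in live draining members, against 41.0, 72.7 and 71.5 CPM in live non-draining members (2.59 ± 0.26, edgeR adjusted p = 1.13e-07). Lcn2, which encodes the siderophore-binding lipocalin 2, was at 59.2, 38.5 and 38.4 CPM, against 7.13, 2.59 and 0 CPM (3.49 ± 0.51, 4.06e-05). Id1 was at 316, 397 and 301 CPM, against 194, 218 and 132 CPM (0.89 ± 0.22, 0.00658). Lcn2 and Id1 were the 2 of 13 tested iron genes that rose, none fell, and the list's median was 0.08. Over all genes tested 10.7% passed, and a count not far from that share, as here, is not read as a result about the list. The rise of Id1 was not the same in both sets, with 0.15 ± 0.25 (edgeR adjusted p = 0.78) in members with a Hamp UMI and 1.76 ± 0.36 (0.012) in members without one, a difference that was itself not tested. Of 21 tested complement and acute phase genes 5 rose and 3 fell, the falls being Cr2, Cr1l and Cd55, at a median of 0.13.

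Cr2, Fcgr2b and Tnfsf13b fell. Cr2, which encodes complement receptor 2, was at 1223, 795 and 725 CPM in live draining members, against 2594, 2133 and 2781 CPM in live non-draining members (-1.45 ± 0.19, edgeR adjusted p = 9.67e-06). Fcgr2b, the inhibitory Fc receptor gene, was at 61.2, 45.6 and 15.4 CPM, against 244, 85.6 and 286 CPM (-2.28 ± 0.34, 3.56e-05). Tnfsf13b, which encodes the B cell survival factor BAFF, was at 97.3, 75.6 and 90.9 CPM, against 184, 163 and 235 CPM (-1.14 ± 0.17, 3.48e-05). The groups did not overlap for any of the 3 genes, and 14.6% of all genes tested were lower without overlap. Fcgr2b was named by a rule that required this. Cr2 and Fcgr2b fell in members with a Hamp UMI, by 1.89 and 4.05 on the log2 scale, whereas in members without one the values were -0.53 ± 0.20 (edgeR adjusted p = 0.29) and -0.42 ± 0.31 (0.66). Cr2 was also the gene whose share of positive cells was lower in members with Hamp, and the share with Hamp was higher in live draining nodes. Summed UMIs of 6 B cell markers were at 226 to 347 CPM in live draining members, against 153 to 319 CPM in live non-draining members. Those of 6 follicular dendritic markers, Cr2 among them, were at 17065 to 19786 CPM in live draining members, against 20182 to 21917 CPM in live non-draining members, without overlap, and 2 of the 5 tested fell. The gap between these sums includes the fall of Cr2 itself, so it is no separate measure of follicular dendritic transcripts. The part of such transcripts in the falls of Cr2 and Fcgr2b was not tested.

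Cxcl12 (chr6:117168535-117181367), the ligand of CXCR4, was at 760, 367 and 988 CPM in live draining members, against 2459, 1791 and 4514 CPM in live non-draining members (-2.06 ± 0.27, edgeR adjusted p = 9.67e-06). It also differed by Hamp make-up, as given above. Within members with a Hamp UMI the change was -1.56 ± 0.27 (0.00066), and within members without one -0.94 ± 0.30 (0.18). Of 19 tested organizer and B zone genes none rose and 4 fell (Cxcl12, Cr2, Tnfsf13b and Cr1l), with a median of -0.08. Of 18 tested in members with a Hamp UMI 3 fell, and none of 18 passed in members without one. Il33, the alarmin gene, was at 292, 273 and 376 CPM in live draining members, against 168, 166 and 143 CPM in live non-draining members (0.97 ± 0.17, edgeR adjusted p = 0.000398). It changed by 1.15 ± 0.27 (0.0089) in members with a Hamp UMI, and its value within those without one was 0.03 ± 0.28 (0.99). Mif changed by 0.76 ± 0.17 (0.00275). Of 19 tested chemokines and cytokines 3 rose (Il33, Mif and Ccl2) and 4 fell (Cxcl12, Tnfsf13b, Il34 and Kitl), with a median of -0.08. The counts of both lists stand beside 5.26% of all genes tested that rose and 5.48% that fell. The medullary marker sum was at 406 to 1046 CPM in live draining members, against 1827 to 4540 CPM in live non-draining members. Most of this sum was Cxcl12 itself in each of these libraries, so it largely repeats the Cxcl12 values. The part of other medullary transcripts in the Cxcl12 result was not tested.

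Sncg, the gamma-synuclein gene (ENSMUSG00000023064.4, chr14:34370274-34374789), showed the largest of the named falls, at 4.01, 20.0 and 14.1 CPM in live draining members, against 150, 98.6 and 195 CPM in live non-draining members (-3.44 ± 0.38, edgeR adjusted p = 6.82e-07). The change was nearly the same within members with a Hamp UMI (-2.73 ± 0.71, 0.017) and within members without one (-2.75 ± 0.37, 2.8e-05). Csf1r, the receptor gene for CSF1 and IL-34, was at 14.05, 1.43 and 8.96 CPM, against 66.0, 28.5 and 62.9 CPM (-2.84 ± 0.50, 0.000287). Csf1r is also a macrophage marker, and the sum of 6 macrophage markers was at 298 to 1180 CPM in live draining members, against 62.3 to 795 CPM in live non-draining members, ranges that overlapped. The part of macrophage transcripts in the Csf1r result was not tested. Its ligand gene Il34 fell by 1.47 on the log2 scale (edgeR adjusted p = 0.029).

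The adhesion molecule gene Cadm2 was at 22.1, 11.4 and 6.40 CPM in live draining members, against 78.5, 80.4 and 71.5 CPM in live non-draining members (-2.49 ± 0.29, edgeR adjusted p = 1.06e-06). Nphs1 fell by 2.39 (SE 0.35, 3.41e-05), the water channel gene Aqp4 by 2.38 (SE 0.39, 0.000134) and the desmoglein gene Dsg1a, which has near copies, by 2.22 (SE 0.48, 0.00256) on the log2 scale. Nphs1 had -3.05 ± 0.58 (0.0015) with Hamp and -1.13 ± 0.42 (0.27) without. Rgs5, a regulator of G protein signals and a pericyte marker, was at 708, 470 and 335 CPM in live draining members, against 1903, 1238 and 2495 CPM in live non-draining members (-1.89 ± 0.22, edgeR adjusted p = 1.06e-06). The 4 pericyte markers summed to 599 to 998 CPM in live draining members, against 1635 to 2878 CPM in live non-draining members. Rgs5 is among them and made up most of the sum in each of these libraries, so the gap largely repeats its own fall. The part of pericyte transcripts in these falls was not tested.

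Of 16 tested genes of vesicle release beside Syt1, 3 fell and none rose, with a median of 0.04. The falls were Syt11 (-1.38 ± 0.27, edgeR adjusted p = 0.00091), Stxbp3 (-0.80 ± 0.16, 0.00091) and the secretogranin gene Scg3, which was at 73.3, 78.4 and 73.0 CPM in live draining members, against 177, 112 and 129 CPM in live non-draining members (-0.92 ± 0.19, 0.00152). Of 12 tested retinoid genes Rarres1 rose and Aldh1a3 fell, at a median of -0.13, while 10.7% of all genes tested passed. Aldh1a3 was at 37.1, 32.8 and 20.5 CPM in live draining members, against 136, 72.7 and 143 CPM in live non-draining members (-1.93 ± 0.25, edgeR adjusted p = 6.51e-06).

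Circadian output genes were the list with the lowest median, -1.37 over 12 tested genes, of which 6 fell and none rose. The share of all genes tested that fell was 5.48%. Hlf, a PAR bZIP factor gene, was at 20.1, 22.8 and 15.4 CPM in live draining members, against 76.7, 72.7 and 123 CPM in live non-draining members (-2.14 ± 0.27, edgeR adjusted p = 4.41e-06). Its relatives Dbp (-1.84 ± 0.28, 4.6e-05) and Tef (-1.56 ± 0.23, 2.48e-05), the clock gene Per3 (-1.69 ± 0.29, 0.000194) and the heme receptor genes Nr1d1 (-1.58, 0.0015) and Nr1d2 (-1.59, 0.0022) fell with it. Within members with a Hamp UMI 6 of 10 fell, at a median of -1.42, and within members without one 2 of 10 fell, at a median of -0.84. As these 6 genes fell, the upstream 250 bases of Tef (chr15:81802423-81802672, plus strand) and Per3 (chr4:151044666-151044915, minus strand) are shown, from the same source. Capitals mark CACGTG, the E-box bound by CLOCK and its partners, and TTATGTAA, the D-box bound by DBP, HLF and TEF.
Tef: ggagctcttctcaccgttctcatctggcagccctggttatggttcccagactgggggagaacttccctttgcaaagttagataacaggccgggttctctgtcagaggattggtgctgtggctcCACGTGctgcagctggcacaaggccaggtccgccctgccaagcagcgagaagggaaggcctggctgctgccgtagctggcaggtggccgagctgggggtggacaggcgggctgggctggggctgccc
Per3: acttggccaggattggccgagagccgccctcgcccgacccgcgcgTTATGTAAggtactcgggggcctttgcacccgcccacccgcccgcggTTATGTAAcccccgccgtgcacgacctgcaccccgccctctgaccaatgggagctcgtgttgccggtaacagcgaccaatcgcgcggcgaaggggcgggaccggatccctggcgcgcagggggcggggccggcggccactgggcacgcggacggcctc

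The E-box lay at bases 127 to 122 before the start of Tef, and the D-box at bases 205 to 198 and 158 to 151 before that of Per3. Of 15 listed circadian genes with a promoter entry, 5 held CACGTG and 1 held TTATGTAA on either strand within 250 bases. Of the 6 that fell, 1 and 1 did. Among all 27025 promoters 6.05% held the E-box and 0.862% the D-box.

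In each list of energy metabolism, cell cycle and ribosome biogenesis genes a minority of the tested genes passed. Of 45 tested nuclear genes of oxidative phosphorylation 10 rose and none fell, with a median of 0.39, and of 18 glycolysis and hypoxia genes 7 rose and 1 fell, with a median of 0.49. Ldha, the lactate dehydrogenase A gene, was at 451, 552 and 384 CPM in live draining members, against 221, 189 and 166 CPM in live non-draining members (1.26 ± 0.17, edgeR adjusted p = 9.67e-06), and Pkm, the pyruvate kinase gene, changed by 0.86 ± 0.14 (9.62e-05). Pkm had 0.92 ± 0.18 (0.0018) with Hamp and 0.44 ± 0.22 (0.45) without. The gene that fell was Hif1a, by 0.56. Of 14 tested cell cycle genes 5 rose and 1 fell, at a median of 0.94, among them Hmgb2 at 113, 149 and 104 CPM in live draining members, against 46.4, 28.5 and 34.3 CPM in live non-draining members (1.72 ± 0.24, edgeR adjusted p = 1.4e-05). The defining mitotic genes Mki67, Top2a and Cdk1 had too few counts to be tested, and Ccnd2 fell by 1.203 on the log2 scale (SE 0.25, edgeR adjusted p = 0.00159). Of 24 ribosome biogenesis genes 2 rose, Npm1 (0.84 ± 0.16, edgeR adjusted p = 0.000768) and Nhp2 (0.91 ± 0.23, 0.00829), at a median of 0.35. That count lay near the 10.7% of all genes tested that passed.

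Of 27 tested endoplasmic reticulum genes for folding and import 5 rose (Calr, Manf, Sdf2l1, Sec61b and Ssr2) and Herpud1 fell, at a median of 0.20. Of 30 MHC and interferon genes Ifi27 and Psme1 rose and Tap2 and H2-T23, which has close relatives, fell, at a median of 0.09. Of 17 BMP and Wnt genes 2 rose and 3 fell at a median of -0.22, among them the BMP and Wnt antagonist gene Sostdc1, at 51.2, 49.9 and 71.7 CPM in live draining members, against 187, 132 and 163 CPM in live non-draining members (-1.53 ± 0.25, edgeR adjusted p = 0.000104). Of 17 growth factor genes 2 rose and 4 fell, at a median of -0.17. The heparin-binding growth factor gene Mdk was at 58.2, 53.5 and 43.5 CPM in live draining members, against 212, 104 and 263 CPM in live non-draining members (-1.88 ± 0.25, edgeR adjusted p = 7.33e-06), and Igfbp5 was at 1413, 675 and 766 CPM, against 1936, 2465 and 2841 CPM (-1.34 ± 0.21, 6.31e-05). Igfbp5 fell within members with a Hamp UMI (-2.08 ± 0.22, 1.9e-06), and its value within members without one was -0.10 ± 0.28 (0.93). Of 23 immediate early and heat shock genes Hspb1 rose and Klf4 fell, at a median of -0.37. The counts of this list and of the MHC and interferon list lay near the 10.7% of all genes tested that passed.

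**Figure D4:**
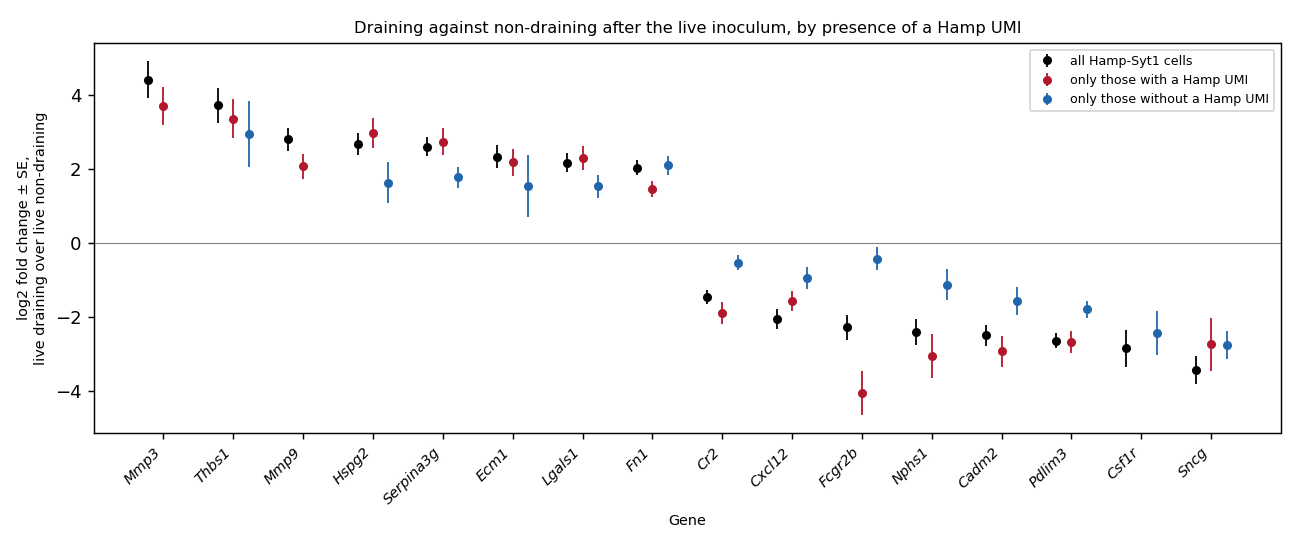
Log2 fold change (± SE) of live draining over live non-draining nodes for 16 genes, in all Hamp-Syt1 cells (black), only those with a Hamp UMI (red) and only those without one (blue). A missing point had too few counts to be tested. Fn1 (1.46 with, 2.10 without) and Sncg (-2.73 with, -2.75 without) had like values in both, while Cr2 had -1.89 with and -0.53 without and Fcgr2b -4.05 with and -0.42 without.

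Members of fixed draining nodes were compared with members of fixed non-draining nodes, the control for a response to tumor material without tumor growth. Of 8886 genes 1 passed (0.0113%), with 443 at an unadjusted p under 0.05 (4.99%) and none by DESeq2, where 308 had an unadjusted p under 0.05. The gene was Cxcl10, an interferon-induced chemokine, named after its values were seen. It was at 10.45, 5.58 and 7.32 CPM in fixed draining members, against 524, 185 and 0 CPM in fixed non-draining members (-5.04 ± 0.86, edgeR adjusted p = 0.018). The fixed non-draining libraries lay both above and below all fixed draining ones, so the groups overlapped, and those libraries held 19, 12 and 12 members. With any 1 fixed library other than fixed non-draining replicate C left out, no gene passed in edgeR, and 447 to 497 had an unadjusted p under 0.05.

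Genes named above had these values after fixed cells. Mmp3 was at 35.3, 39.1 and 124 CPM in fixed draining members, against 0, 34.3 and 59.8 CPM in fixed non-draining members (1.196 ± 0.79, edgeR adjusted p = 1). Fn1 was at 559, 417 and 637 CPM, against 351, 356 and 179 CPM (0.85 ± 0.22, 0.651). The fixed libraries of Fn1 did not overlap, which was also true of 11.1% of all genes in that comparison (6.1% higher and 4.95% lower). Cr2 was at 2405, 1725 and 2553 CPM in fixed draining members, against 2666, 2933 and 2230 CPM in fixed non-draining members (-0.23 ± 0.19, 1). Lcn2 had no UMI in the 3 fixed non-draining libraries, so no fold is given against them. The median over the 23 tested immediate early and heat shock genes was 0.76 after fixed cells, with none passing, beside a median of 0.01 over all genes tested. For matrix glycoproteins it was 0.06 and for circadian output genes -0.23.

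**Figure D5:**
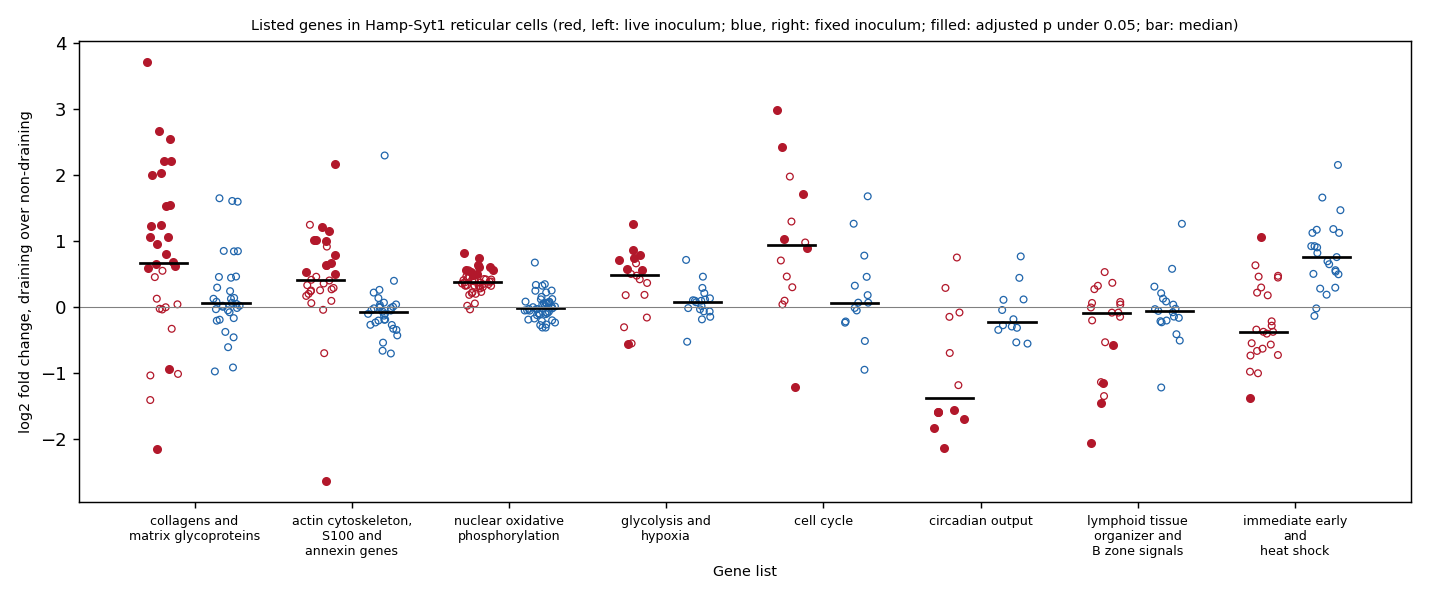
Log2 fold change of draining over non-draining nodes for the genes of 8 lists in Hamp-Syt1 cells, red on the left after live cells and blue on the right after fixed cells. Each point is a gene, filled where its adjusted p was under 0.05, and bars are medians. After live cells the median was 0.66 for matrix genes and -1.37 for circadian genes, against 0.06 and -0.23 after fixed cells, where no listed gene shown was filled.

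The difference between the draining effects after live and after fixed cells was tested itself. Of 8886 genes 119 passed (1.34%), 38 with a higher (0.428%) and 81 with a lower effect (0.912%) after live cells, and 1239 had an unadjusted p under 0.05 (13.9%). The split was 47 higher and 80 lower with RLE factors and 83 higher and 76 lower by DESeq2. Among named genes that passed, Cxcl10 had the largest positive difference on the log2 scale (5.70), from the fixed non-draining libraries described above, followed by Ecm1 (3.04 ± 0.61, edgeR adjusted p = 0.00842), Ifitm1 (2.84 ± 0.53, 0.00485), Serpina3g (2.72 ± 0.43, 0.000926) and Lgals1 (2.44 ± 0.42, 0.00192). Ifitm1, an interferon-induced membrane protein gene with close relatives, was at 216, 334 and 280 CPM in live draining members, against 109, 41.5 and 65.8 CPM in live non-draining members, and at 82.3, 193 and 84.9 CPM in fixed draining members, against 130, 459 and 173 CPM in fixed non-draining members. The largest named negative differences that passed were those of Csf1r (-3.98 ± 0.81, edgeR adjusted p = 0.00986), Sncg (-3.73 ± 0.53, 0.000357), Cxcl12 (-2.64 ± 0.39, 0.000357) and the heat shock gene Hspa1b (-2.45 ± 0.61, 0.0356), which has a near-identical copy. For Mmp3 the difference was 3.22 ± 1.21 and did not pass (0.185), nor did that of Thbs1 (2.11 ± 1.36, 0.52) or Mmp9 (2.40 ± 0.65, 0.0552). Fn1 (1.18 ± 0.30, 0.0385), Cr2 (-1.22 ± 0.27, 0.0195), Hlf (-2.25 ± 0.40, 0.0025) and Pdlim3 (-2.41 ± 0.28, 1.37e-05) passed. This count rested on few libraries, with 49 genes when fixed non-draining replicate A was left out. It was 62 when either live draining replicate B or fixed non-draining replicate C was left out, 64 for live non-draining replicate C and 67 for fixed draining replicate A. Within members with a Hamp UMI 16 genes passed and within members without one 2 did.

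Naive nodes gave a reference from other animals, although the live draining libraries serve in both comparisons. Between live draining and naive members 1082 of 8886 genes passed (12.2%), 531 higher (5.98%) and 551 lower (6.2%), and 2238 had an unadjusted p under 0.05 (25.2%). The count was 551 without live draining replicate B and 708 without live draining replicate A. Mmp3 was at 376, 413 and 522 CPM in live draining members, against 22.9, 94.5, 42.0 and 8.07 CPM in naive members (3.38 ± 0.37, edgeR adjusted p = 2.4e-07). Among named genes with an average log2 CPM of 5 or more, Hspg2 (3.13 ± 0.27, 4.25e-09), Mmp9 (2.93 ± 0.26, 5.58e-09) and Serpina3g (2.28 ± 0.21, 1e-08) made up the largest rises with it, while Lcn2, at a lower level, had 3.60 ± 0.43 (1.5e-06). Sncg (-3.36 ± 0.35, 1.07e-07), Csf1r (-2.97 ± 0.44, 2.29e-05), Nphs1 (-2.47 ± 0.31, 2.31e-06) and Pdlim3 (-2.42 ± 0.19, 7.35e-10) had the largest named falls. Madcam1, which had not passed against live non-draining nodes, was at 448, 604 and 456 CPM in live draining members, against 267, 243, 255 and 177 CPM in naive members (1.09 ± 0.17, edgeR adjusted p = 3.95e-05). Il33, which had passed there, did not pass here (0.27 ± 0.15, 0.268), and neither did Igfbp7 (0.32 ± 0.16, 0.205). Matrix glycoproteins had 17 of 32 genes higher and 5 lower, with a median of 0.69, and circadian genes had 5 of 12 lower, with a median of -0.98. A Hamp UMI was found in 33.3% to 53.7% of naive members, so this comparison too joined members of different make-up.

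The draining effect after live cells was compared between Hamp-Syt1 cells and the Tnfsf11-Ch25h type of the same libraries, with the library as a block. Of 10401 genes 85 differed (0.817%), 46 with a higher (0.442%) and 39 with a lower effect (0.375%) in Hamp-Syt1 cells, and 972 had an unadjusted p under 0.05 (9.35%). The effect was higher in Hamp-Syt1 cells for Mmp3 (a difference of 3.44 ± 0.53 on the log2 scale, edgeR adjusted p = 0.000317), Thbs1 (3.01 ± 0.53, 0.00206), Ecm1 (2.11 ± 0.37, 0.00206) and Aoc1, which encodes the diamine oxidase that breaks down histamine (2.03 ± 0.44, 0.0161). Aoc1 was at 53.2, 73.4 and 38.4 CPM in live draining members, against 12.5, 18.2 and 11.4 CPM in live non-draining members. The effect was lower in Hamp-Syt1 cells for Postn (-2.35 ± 0.36, edgeR adjusted p = 0.000317), Rgs5 (-1.88 ± 0.28, 0.000317), Fgd5 (-1.87 ± 0.36, 0.00528), Arhgap26 (-1.83 ± 0.44, 0.0367) and Mdk (-1.78 ± 0.27, 0.000317). For Fn1 the difference was -0.85 ± 0.28 (0.199), for Cr2 -1.04 ± 0.47 (0.479) and for Hlf -0.25 ± 0.30 (0.877), and none of these passed. The count was 28 when live draining replicate B was left out, 38 for live draining replicate C, 55 for live non-draining replicate B and 31 for live non-draining replicate C. The types were cut apart on gene sums whose genes themselves differ between groups, which cannot be told apart from a change within each type.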

How the data were processed

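Single cells of PDPN-enriched lymph node suspensions were profiled with 10x Genomics 3′ v3 chemistry. Per the labels, the authors made UMI counts with Cell Ranger 3.0.1 on mm10 and deposited them as raw counts per gene and barcode, 1 matrix for each of 16 libraries. The annotation release is not given in the sources used here. Gene positions were matched by identifier to gencode vM21 (48058 of 48440 identifiers), and promoters came from RefSeq (GRCm38.p6, matched by symbol, 250 bases upstream). No column of another series was present (0).

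Cells and members were selected as stated in the report, and the members, lists and rule were chosen with earlier results of these data known. The other classes needed at least 3 UMIs in their gene sum, with that sum the highest. B cells for background had at least 3 UMIs of Cd79a and Cd79b and no Col1a2 or Pdgfra, and LECs at least 3 of Lyve1, Prox1 and Mmrn1. Free RNA was not removed. Member UMIs were summed per library (at least 5 members, met by all 16), and levels are CPM of these sums, over TMM-scaled totals of tested genes between nodes and over plain totals between classes. The sums were tested with edgeR 4.0.16 (TMM, filterByExpr, quasi-likelihood fit over all 5 groups, Benjamini-Hochberg) under R 4.3.3, with 24 rule genes removed from the tests. An SE is the log2 fold change divided by the root of the F statistic. Depth was 150837 to 1487718 member UMIs per library. Scrublet, run within scanpy 1.11.5 on Python 3.11.15, ranked doublets, and 0.8% per 1000 cells were marked.

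Named genes were the rule genes with Cxcl13, Rarres1, Madcam1 and Enpp2, the 8 largest rises and 8 largest falls (4 each in other comparisons) that passed the test without overlap at an average log2 CPM of 5 or more, and up to 4 listed genes of smallest p from each of 19 lists. Alternatives were DESeq2 1.42.0, RLE factors, no filter, at least 10 members per library, a sum of at least 5, cells thinned to 2000 UMIs, at most 20 members per library (median of 20 draws), at most 10% mitochondrial UMIs, doublets left out, replicate letters as a block and each library left out. Members with and without a Hamp UMI were added after seeing the data. The test was tried on simulated data. The letters A to C were not used as pairs, since no source says that they mark a mouse. Some genes that met the naming rule are not reported here.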

Additional observations from a re-analysis of the deposited data

Results flagged for a closer look

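In the naive group, 1 of 4 libraries stood apart by Dixon's criterion for 6 of the named genes. The criterion was applied to every named gene, of which 76 passed in the live comparison alone. Chance alone gives about 1 in 20 groups, so 6 cases are not far from that share. Naive replicate C had 48.97 CPM of Arhgap26 and 180 CPM of Tpm2, naive replicate B had 87.1 CPM of Cxcl10, and naive replicate D had 56.5 CPM of Syt11, 311 CPM of Sec61b and 0 CPM of Stmn1. The naive libraries enter the levels of the comparison with naive nodes alone, but their spread enters the fit behind every comparison. With 1 naive library left out, 935 to 961 genes passed in the live comparison (954 with all), 118 to 128 for the difference (119) and 759 to 1070 against naive nodes (1082).

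In the edgeR test of the difference, a further group of named genes had unlike draining effects after live and after fixed cells. On the log2 scale, live minus fixed, the effect was higher after live cells for Cxcl10 (5.70), Ecm1 (3.04), Ifitm1 (2.84), Serpina3g (2.72), Lgals1 (2.44), Hmgb2 (1.73), Col4a1 (1.51), Ldha (1.44), S100a6 (1.40), Fn1 (1.18), Npm1 (1.04), Mif (0.99) and Ndufc1 (0.94). It was lower for Csf1r (-3.98), Sncg (-3.73), Cxcl12 (-2.64), Hspa1b (-2.45), Pdlim3 (-2.41), Cadm2 (-2.28), Hlf (-2.25), Aldh1a3 (-1.80), Fgf1 (-1.60), Arhgap26 (-1.58), Rgs5 (-1.57), Tnfsf13b (-1.45), Sostdc1 (-1.44), Tef (-1.29), Igfbp5 (-1.28), Scg3 (-1.26) and Cr2 (-1.22). The value of Cxcl10 came from the fixed non-draining libraries, of which 1 had no UMI of it.

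The effect after live cells differed between Hamp-Syt1 cells and the Tnfsf11-Ch25h type in the edgeR test for other named genes. On the log2 scale, Hamp-Syt1 minus Tnfsf11-Ch25h, the difference was 3.44 for Mmp3, 3.01 for Thbs1, 2.11 for Ecm1, 2.03 for Aoc1, 1.71 for Ifitm1, 1.67 for Mmp9, 1.45 for Tpm2, 1.30 for Serpina3g, 1.08 for Lgals1 and 0.94 for Col4a1. It was -2.35 for Postn, -1.88 for Rgs5, -1.87 for Fgd5, -1.83 for Arhgap26, -1.78 for Mdk, -1.45 for Pdlim3, -1.38 for Dbp and -1.25 for Cxcl12.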

How the results depend on the processing

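For the live comparison, 954 genes passed as reported, and 276 did with the rule applied to thinned cells, 326 with at most 20 members per library (median over draws), 488 in members with a Hamp UMI, 37 in members without one and 526 to 1014 with each library left out (526 without live non-draining replicate C, 559 without live draining replicate B). For the fixed comparison (1 gene), 31 passed with no filter on low counts, 0 by DESeq2, on thinned cells, with at most 20 members and with a Hamp UMI, 6 without a Hamp UMI and 0 to 1 with each library left out. For the difference (119), 258 passed with no filter, 3 on thinned cells, 20.5 with at most 20 members, 16 with and 2 without a Hamp UMI, and 49 to 164 with each library left out. Against naive nodes (1082), 242 passed on thinned cells, 286.5 with at most 20 members, 361 with and 60 without a Hamp UMI, and 551 to 1173 with each library left out (551 without live draining replicate B, 708 without live draining replicate A). Between the types (85), 164 passed with no filter, 40 by DESeq2, 21 on thinned cells, 5.5 with at most 20 members, 39 with and 8 without a Hamp UMI, and 28 to 90 with each library left out. Fewer cells, UMIs and genes entered the thinned, 20-member and Hamp sets by construction, and other causes were not tested. Thinning left fixed non-draining replicate B out of the fit with 4 members, and the set without Hamp left out fixed non-draining replicate C with 3. With a library left out, the others carried the spread. Members were 6.57% of fibroblastic cells as reported, 5.64% with a sum of at least 5 and 2.61% on thinned cells.

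With the replicate letters as a block, 838 genes passed in the live comparison (807 of them shared with the 954), 6 in the fixed one and 100 for the difference. Correlations between same-letter libraries were -0.0328 to 0.0455, and 3 of 6 draining libraries were closest to their own letter. With 3 libraries in each group, these values cannot show whether a letter marks the same mouse.

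Of the 76 named genes called in the live comparison, none changed direction where it could be tested. On thinned cells 73 could be tested and 31 no longer passed, with at most 20 members 74 and 18, with a Hamp UMI 73 and 20, and without one 70 and 54. Under the remaining alternatives all 76 were tested, and up to 10 no longer passed. Signs changed for Fn1 (-0.36) in the difference and Bambi (0.21) against naive nodes on thinned cells, and in members without a Hamp UMI for Igfbp5 (0.23) in the difference and for Thbs1 (-0.15), Dsg1a (0.29) and Fgd5 (0.0034) against naive nodes, none of them passing there. Depth limits the fixed non-draining nodes most, with 12 to 19 members and 150837 to 239142 UMIs each.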

Other observations

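Genes widest above the T zone class included neural and retinoid names: Stra6, the receptor gene for retinol uptake, averaged 154 ± 78.6 CPM in members and 0.41 ± 0.67 CPM in the T zone class (SD, n = 16), Snap91 121 ± 36.1 against 0.64 ± 0.96 CPM and the neuroendocrine factor gene Insm1 62.5 ± 19.7 against 0.44 ± 0.58 CPM, each higher in 16 of 16 libraries. At the other end stood the chemokine gene Ccl11, at 0.91 ± 1.60 against 287 ± 45.2 CPM, and Clec3b, at 9.08 ± 5.73 against 608 ± 73.0 CPM, each lower in members in 16 of 16 libraries. These gaps follow from how the classes were cut and carry no test.

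The Fcer2a-Tesc-Epcam class, with 134 cells, lay close to the members in Syt1 (280 CPM, against 336 CPM in members), Megf6 (177 against 170 CPM) and Rarres1 (93.1 against 95.7 CPM), and apart in Tnfsf11 (8.96 against 177 CPM), Enpp2 (1259 against 4283 CPM) and Cxcl13 (16329 against 38147 CPM). A230065H16Rik, Aldh1a3 and Art2a-ps averaged higher in this class than in members. The class held 2 to 18 cells a library, and no comparison of conditions was made in it.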
